A study of Mus musculus with 6 samples.

Results

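The FoxO transcription factors Foxo1, Foxo3 and Foxo4, the sestrins Sesn1 and Sesn3, and the growth arrest and redox genes Cdkn1a, Gadd45a and Txnip were followed in RNA-seq libraries from mouse tibialis anterior, a mostly fast-contracting muscle of the lower hindlimb. The 8 genes were taken by symbol, by a rule that uses no measured value, and all 8 were found among the 41025 genes of each table. Muscle was taken at 8 weeks of age from C57BL/6 mice, and 3 libraries carried the label Mettl21e KO and 3 the label wild type (WT). Mettl21e encodes a muscle-enriched methyltransferase of the METTL21 family, and the labels do not say how the allele was made or whether it was lost in muscle alone. The replicates are called biological, but nothing ties each to a separate mouse, so the tests gauge only how far these libraries differ from each other, which may be technical. Values were deposited as FPKM, that is, fragments scaled to gene length in kilobases and to the fragment total of the library.

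FoxO factors are forkhead transcription factors that insulin and IGF signalling hold outside the nucleus through phosphorylation by AKT. In muscle they are known for switching on ubiquitin ligase and autophagy genes during fasting, disuse and wasting. Sestrins are stress-induced proteins that restrain the growth kinase mTORC1, and Cdkn1a, Gadd45a and Txnip are stress-responsive genes that FoxO factors have been reported to influence along with p53, ATF4 or glucose sensors.

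The libraries held between 8476591 and 10856669 fragments, so that a single fragment on 1 kb of gene added 0.0921 to 0.118 FPKM. Mitochondrial genes took 15.2% to 19.8% of the gene fragments. Mettl21e was at 1.64, 1.45 and 1.88 FPKM in KO-labelled libraries 1, 2 and 3 and at 2.46, 0.309 and 1.23 FPKM in WT-labelled libraries 1, 2 and 3. Its level thus did not separate the labels (exact two-sided permutation p = 0.7), and every direction below is one between libraries labelled KO and libraries labelled WT. Muscle fibre genes were high in each library, with the skeletal actin gene Acta1 at 13695 to 16841 FPKM in KO-labelled libraries and 16564 to 19584 FPKM in WT-labelled ones. The fast myosin gene Myh4 was at 3603 to 5082 FPKM under the KO label and 3611 to 4162 FPKM under the WT label, and the slow myosin gene Myh7 at 0.549 to 0.714 FPKM under the KO label and 0.876 to 14.3 FPKM under the WT label. Markers of other cells were not even across libraries. The 7 fibroblast markers summed to 207 to 281 FPKM in KO-labelled libraries and 199 to 404 FPKM in WT-labelled ones, and the 6 slow-fibre markers to 42.9 to 75.3 FPKM under the KO label and 80.9 to 188 FPKM under the WT label. In whole muscle, fewer cells of a type and less RNA per cell cannot be told apart. Labels also did not overlap in the summed FPKM of 6 adipocyte markers (85.1 to 97.55 under the KO label and 97.63 to 140.6 under the WT label) or of 6 lymphocyte markers (5.02 to 7.36 under the KO label and 10.9 to 14.3 under the WT label). Single markers were mixed. Fabp4 and Cfd did not overlap, and Retn did. Adipoq, Plin1 and Lep were lowest of all in library 1 labelled WT (2.34, 1.48 and 0.303 FPKM). The 2 tested lymphocyte markers, Ighm and Igha, each overlapped between labels. Among slow-fibre markers, Tnnt1, Tnni1 and Tnnc1 overlapped, while Myh7, Myl2 and Atp2a2 did not. All tested markers were lower on average in KO-labelled libraries for slow fibres (6), endothelium (7), fibroblasts (7) and tendon (5). The same held for macrophages (5), neutrophils (3), lymphocytes (2) and adipocytes (5). Muscle fibre, satellite cell, smooth muscle, Schwann cell and erythrocyte markers went both ways. Lower at an unadjusted limma p under 0.05 were 4 slow-fibre, 3 adipocyte, 1 macrophage and 1 lymphocyte marker. Of all tested genes, 3.31% were lower at that cut. The part of other cell types in the values of the 8 genes was not tested. The neutrophil markers summed to 150 FPKM in library 3 labelled WT and to at most 14.2 FPKM in any other library.

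The 8 genes covered a wide range of levels, with Txnip and Foxo4 well above the rest. Mean FPKM over the 6 libraries was 224 for Txnip and 90.2 for Foxo4. Gadd45a, Cdkn1a, Foxo3 and Sesn1 followed at 17.3, 16.8, 14.8 and 12.3 FPKM, and each neighbouring pair in that order had overlapping library values. Foxo1 and Sesn3 were lowest at 2.79 and 2.69 FPKM and also overlapped. The order depended in part on the gene length used to make the FPKM. The length recovered from the values equalled the mean length of all annotated transcripts of the gene for Foxo1, Foxo3, Foxo4, Gadd45a and Txnip in the annotation used here. That mean was 1289 bases for Txnip, whose longest protein-coding transcript has 2827, and 2820 bases for Foxo3, whose longest has 6848. Sesn3 had the largest gap, with 2162 bases behind its FPKM and a longest protein-coding transcript of 9125. Per kilobase of the longest protein-coding transcript, Sesn3 averaged 0.637 and Foxo1 2.79 on the FPKM scale, and their library values no longer overlapped. On the same scale Sesn1 (9.32) stood above Foxo3 (6.10), again without overlap, where the deposited FPKM had them the other way round. Ratios of the FPKM of 1 gene between libraries do not depend on this length. The log2(FPKM + 1) differences used below and their filter at a mean of 1 FPKM do depend on it. At 0.637, Sesn3 would fall below that filter.

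**Figure D1:**
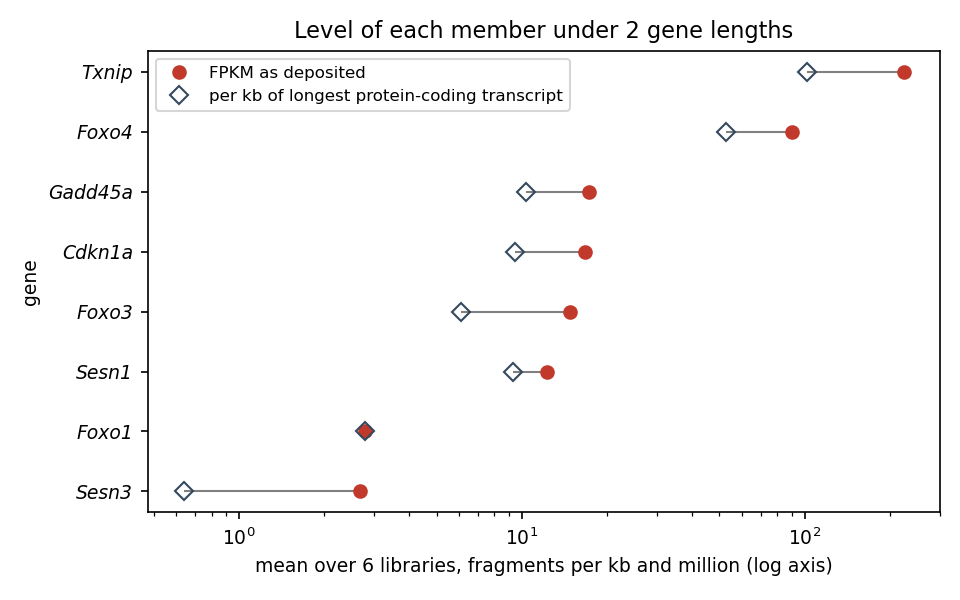
Mean level of each of the 8 genes over the 6 libraries, as deposited FPKM (filled circles) and as FPKM recomputed for the longest protein-coding transcript (open diamonds), on a log axis. Foxo1 keeps its 2.79 under both lengths, while Sesn3 goes from 2.69 as deposited to 0.637.

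Foxo4 supplied most of the FoxO transcripts in this muscle. Foxo4 (chromosome X, 101254528 to 101260873, plus strand, mm10) was at 95.7, 88.1 and 98.03 FPKM in KO-labelled libraries 1, 2 and 3 and at 83.1, 84.2 and 91.7 FPKM in WT-labelled libraries 1, 2 and 3. The libraries labelled KO lay towards the upper end, but library 3 labelled WT was above library 2 labelled KO, so the labels overlapped. The means were 94.0 ± 5.18 FPKM in KO-labelled libraries and 86.3 ± 4.68 FPKM in WT-labelled ones (SD, n = 3 each), a log2 difference of 0.12 (SE 0.08, limma adjusted p = 0.988; exact two-sided permutation p = 0.2). Foxo4 made up 84.6 ± 1.22% of the summed FPKM of Foxo1, Foxo3 and Foxo4 in KO-labelled libraries and 82.7 ± 2.38% in WT-labelled ones (SD, n = 3 each). Per kilobase of the longest protein-coding transcript these shares were 86.4 ± 1.37% under the KO label and 84.6 ± 2.66% under the WT label.

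Foxo3, the FoxO factor best known for inducing atrophy and autophagy genes in muscle, lies on the minus strand of chromosome 10 (42181841 to 42276755). Its values were 15.2, 14.3 and 13.8 FPKM in KO-labelled libraries 1, 2 and 3 and 16.4, 15.3 and 14.0 FPKM in WT-labelled libraries 1, 2 and 3. All 6 lay within a 1.18-fold range, with a log2 difference of -0.07 (SE 0.10, limma adjusted p = 0.988). Its spread within a label was 6.66% of its mean, close to the 4.92% that counting its fragments alone would give. Foxo1 (chromosome 3, 52268336 to 52353221, plus strand), which also acts on muscle glucose use through its targets, was at 3.39, 2.53 and 2.18 FPKM in KO-labelled libraries 1, 2 and 3 and at 4.02, 2.48 and 2.14 FPKM in WT-labelled libraries 1, 2 and 3. Library 1 of each label was the high one, and the other 4 libraries lay close together. The spread within a label was 30.0% of the mean, against 6.44% from counting alone, and the log2 difference was -0.05 (SE 0.21, adjusted p = 0.991). The values put the fold between labels, on the log2(FPKM + 1) scale, between 0.696 and 1.34 for Foxo1 and between 0.819 and 1.11 for Foxo3 (95% intervals, limma). The fourth family member Foxo6 was at 5.73 ± 1.91 FPKM in KO-labelled libraries and 5.25 ± 0.885 FPKM in WT-labelled ones, above Foxo1 in each library.

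**Figure D2:**
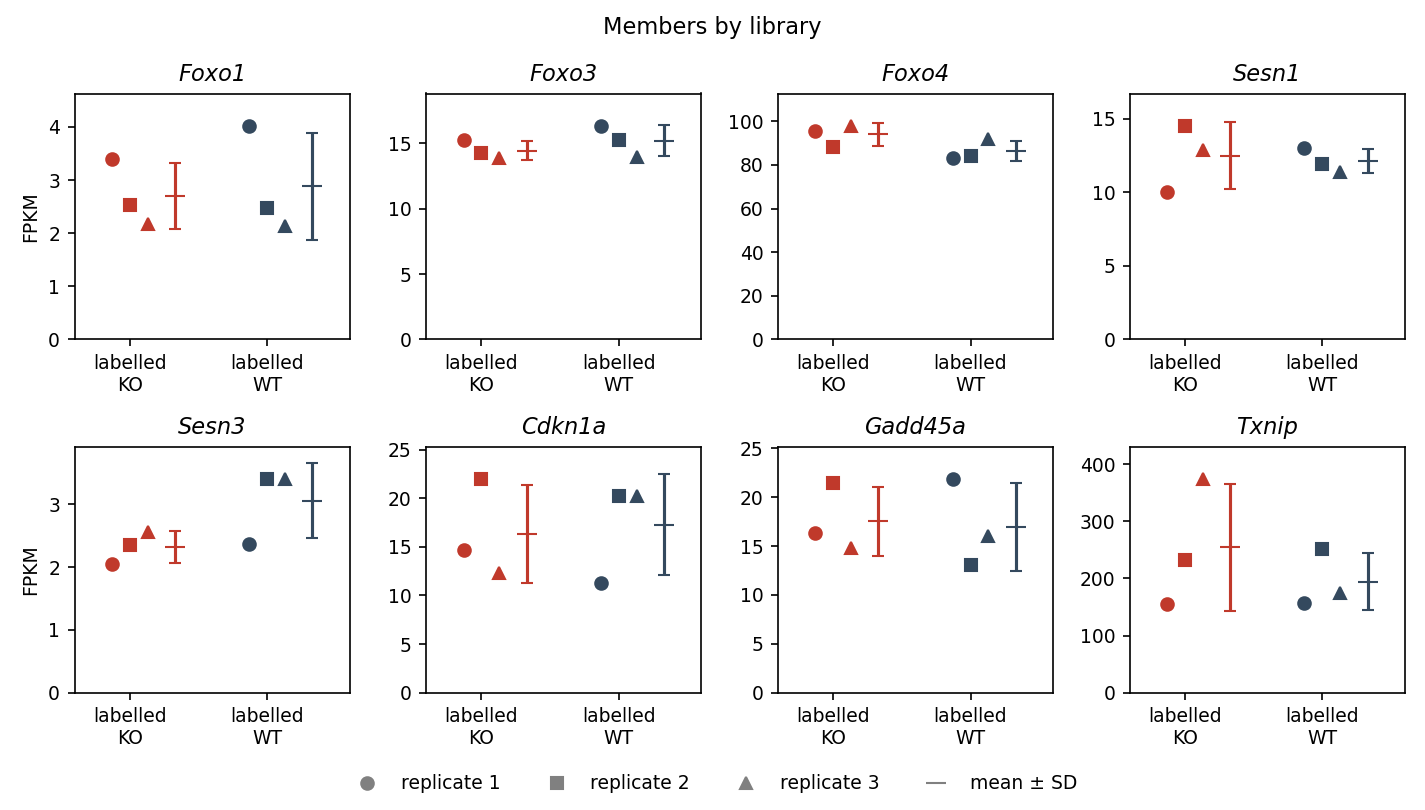
FPKM of the 8 genes in each library, with libraries labelled KO in red on the left and those labelled WT in dark blue on the right of each panel, and the mean ± SD beside the points (n = 3). Values of the labels overlap in every panel, and Txnip spans the widest range, from 156 to 374 FPKM.

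Neither sestrin passed the test between the labels, and the FPKM of Sesn1 was 3.35 to 6.19 times that of Sesn3 in single libraries. Per kilobase of the longest protein-coding transcript that ratio was 10.7 to 19.8. Sesn1 (chromosome 10, 41809935 to 41908424, plus strand), a leucine-sensing sestrin, was at 10.03, 14.5 and 12.9 FPKM in KO-labelled libraries 1, 2 and 3 and at 13.1, 11.9 and 11.4 FPKM in WT-labelled libraries 1, 2 and 3. The lowest and the highest library both carried the KO label, with a log2 difference of 0.03 (SE 0.14, adjusted p = 0.995). Sesn3 (chromosome 9, 14275067 to 14333101, plus strand), a sestrin induced by FoxO factors, was at 2.05, 2.35 and 2.56 FPKM in KO-labelled libraries 1, 2 and 3 and at 2.37, 3.41 and 3.40 FPKM in WT-labelled libraries 1, 2 and 3. Libraries 2 and 3 labelled WT stood above the other 4, and library 1 labelled WT fell within the KO-labelled range. The means were 2.32 ± 0.259 FPKM in KO-labelled libraries and 3.06 ± 0.599 FPKM in WT-labelled ones (SD, n = 3 each), a log2 difference of -0.28 (SE 0.15, limma p = 0.102, adjusted p = 0.988; exact two-sided permutation p = 0.2). The spread of Sesn3 within a label was 17.2% of the mean, where counting alone would give 13.2%, and that of Sesn1 was 14.0%, where counting would give 5.34%. The values of Sesn3 are shallow, with 43 to 53 fragments in KO-labelled libraries and 55 to 80 in WT-labelled ones. Fibroblast markers were high in WT-labelled libraries 2 and 3. The collagen gene Col1a1, named after its values were seen, reached 94.95 and 105 FPKM there and was at 27.2 to 49.3 FPKM in the other 4. Single markers of some other cell types were also high there, such as the macrophage gene C1qa (12.9 and 9.13 FPKM, at most 6.64 elsewhere). So was the endothelial gene Kdr (24.6 and 23.2 FPKM, at most 17.1 elsewhere). The endothelial gene Emcn was not set apart (8.50 FPKM in library 2 labelled WT, 8.75 in library 2 labelled KO). The part of these cell types in the Sesn3 values was not tested. The stress-induced Sesn2 was just above the filter on low values, at 1.05 ± 0.259 FPKM in KO-labelled libraries and 1.17 ± 0.168 FPKM in WT-labelled ones.

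The growth arrest genes varied among libraries of the same label far more than between labels. Cdkn1a (chromosome 17, 29090976 to 29100727, plus strand) encodes p21, an inhibitor of cyclin-dependent kinases and a p53 target. Its values were 14.7, 21.995 and 12.3 FPKM in KO-labelled libraries 1, 2 and 3 and 11.3, 20.3 and 20.3 FPKM in WT-labelled libraries 1, 2 and 3. Library 2 labelled KO and libraries 2 and 3 labelled WT formed a high set near 20 FPKM, and the other 3 lay at 14.7 FPKM or below. The means were 16.3 ± 5.06 FPKM in KO-labelled libraries and 17.3 ± 5.20 FPKM in WT-labelled ones (SD, n = 3 each), with a log2 difference of -0.07 (SE 0.26, adjusted p = 0.988). With 122 to 269 fragments a library, counting alone would give a spread of 7.17%, while the spread within a label was 30.5% and only 3.89% of tested genes had a larger one on the log2 scale. Gadd45a (chromosome 6, 67035096 to 67037457, minus strand), a growth arrest gene that ATF4 induces in disused muscle, was at 16.4, 21.5 and 14.8 FPKM in KO-labelled libraries 1, 2 and 3 and at 21.9, 13.03 and 16.0 FPKM in WT-labelled libraries 1, 2 and 3. The highest and the lowest of the 6 both carried the WT label (log2 difference 0.06, SE 0.19, adjusted p = 0.988). Library 1 labelled WT, the highest for Gadd45a, was the lowest for Cdkn1a.

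Txnip (chromosome 3, 96557957 to 96561883, plus strand) encodes an arrestin-fold protein that binds thioredoxin and limits glucose uptake. It had the highest level and the widest range of the 8 genes. Txnip was at 156, 232 and 374 FPKM in KO-labelled libraries 1, 2 and 3 and at 158, 251 and 175 FPKM in WT-labelled libraries 1, 2 and 3. Library 3 labelled KO stood alone at the top, and library 1 labelled KO was the lowest of all. The means were 254 ± 111 FPKM in KO-labelled libraries and 194 ± 49.7 FPKM in WT-labelled ones (SD, n = 3 each), a log2 difference of 0.32 (SE 0.29, adjusted p = 0.988). Leaving out library 3 labelled KO brought that difference to -0.0023, and leaving out library 1 labelled KO brought it to 0.63. With 1952 to 4088 fragments a library, counting alone would give a spread of 1.89%, against 38.3% within a label. The antisense gene Gm15441 shares 606 exonic bases with Txnip on the other strand, but it was at 0 to 0.402 FPKM, and the sources used here do not give the strand setting of the counting. The antisense partner of Gadd45a, E230016M11Rik, was likewise low at 0.278 to 0.776 FPKM, and that of Foxo1, Gm20402, is listed at 0 in all 6 libraries. On Cdkn1a, AC167363.2 shares 273 exonic bases on the other strand and its level was not analysed here, so the value of Cdkn1a is uncertain to that extent.

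Upstream sequences are shown for the 4 genes whose promoter window held, before the start site, a match to one of the searched motifs other than the CCAAT box, so that the matches can be read in place. The sequences are from RefSeq (build GRCm38.p6), which held a window for 7 of the 8 genes, none for Foxo4. Each run is the 250 bases before the start, 5′ to 3′ on the strand of the gene. Capitals mark the matches described after the sequences. In Txnip (chr3:96557707-96557956, plus strand) they are, in order, a glucocorticoid response element, a FoxO element and a carbohydrate response element. In Cdkn1a (chr17:29090729-29090978, plus strand) they are a p53 element, and in Gadd45a (chr6:67037408-67037657, minus strand) and Sesn3 (chr9:14276051-14276300, plus strand) octamers.
Txnip: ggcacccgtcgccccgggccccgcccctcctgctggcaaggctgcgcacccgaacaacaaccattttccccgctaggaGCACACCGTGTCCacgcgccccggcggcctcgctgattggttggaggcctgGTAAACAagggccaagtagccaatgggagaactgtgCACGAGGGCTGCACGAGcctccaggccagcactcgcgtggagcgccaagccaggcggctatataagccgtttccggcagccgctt
Cdkn1a: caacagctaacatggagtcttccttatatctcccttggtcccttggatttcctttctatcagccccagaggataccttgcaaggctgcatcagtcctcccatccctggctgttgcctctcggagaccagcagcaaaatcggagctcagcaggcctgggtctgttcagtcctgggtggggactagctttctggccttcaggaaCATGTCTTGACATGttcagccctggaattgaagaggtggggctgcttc
Gadd45a: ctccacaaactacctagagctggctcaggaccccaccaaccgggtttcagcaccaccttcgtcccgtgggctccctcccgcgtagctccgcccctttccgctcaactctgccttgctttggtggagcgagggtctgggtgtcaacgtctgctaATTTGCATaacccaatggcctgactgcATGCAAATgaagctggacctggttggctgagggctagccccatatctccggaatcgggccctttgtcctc
Sesn3: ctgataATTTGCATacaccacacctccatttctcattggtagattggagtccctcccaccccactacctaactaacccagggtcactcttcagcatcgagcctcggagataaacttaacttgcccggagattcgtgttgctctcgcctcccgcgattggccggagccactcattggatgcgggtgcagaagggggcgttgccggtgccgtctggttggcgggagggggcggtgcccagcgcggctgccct

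The motifs were searched on both strands over the 250 bases before each start and the 50 after it, and were chosen after these windows had been read. The FoxO element was searched as GTAAACA, found in 3.65% of all 32851 windows, and the carbohydrate response element, through which glucose-sensing factors act, as 2 copies of CACGNG with 5 bases between them (0.0487%). The p53 element was searched as 2 copies of CATG with 6 bases between them (0.712%), the glucocorticoid response element as GNACA and TGTNC with 3 bases between them (0.475%) and the octamer as ATTTGCAT (1.74%). Txnip held its FoxO element 121 bases before the start and its carbohydrate response element 85 bases before it. Sesn1 was the only other member with the FoxO letters, from base 23 after the start of 1 of its 2 windows. The p53 letters of Cdkn1a began 48 bases before the start of the first of its 2 windows, and Gadd45a held octamers at 97 and 70 bases before its start. The shorter CCAAT box (37.4% of all windows) was in 6 of the 9 windows of the members, and none of these matches overlapped another. A match is a run of letters, not a measured binding site, and these libraries carry no measure of binding.

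Between the labels, 0 of the 8 genes passed limma's test, and the tested genes as a whole gave the same answer: 0 of 11383 passed at an adjusted p of 0.05 (0.0%). At an unadjusted p under 0.05 there were 0 of the 8 genes, against 523 of all tested genes (4.59%), of which 146 were higher (1.28%) and 377 lower (3.31%) in KO-labelled libraries. In other fits limma gave unadjusted p-values of 0.0182 for Sesn3 without library 1 labelled WT, 0.02504 for Sesn3 with library weights and 0.0434 for Txnip without library 1 labelled KO, each with an adjusted p of at least 0.306. The libraries of the labels overlapped for all 8, where 9.48% of tested genes had labels that did not overlap. Of the 8 genes 4 were above 0 and 4 below 0, where 43.3% of tested genes were above 0, with a median log2 difference of -0.01 against -0.02 over all tested genes. Sesn3 had the lowest difference, -0.28, and Txnip the highest, 0.32, and each of the 8 lay inside the central 95% of all tested genes (-0.44 to 0.28) apart from Txnip. In the main fit, on the log2(FPKM + 1) scale, the 95% intervals did not reach a 2-fold change for any of the 8, although the upper bound for Txnip was 1.996-fold. Intervals from the other fits, in which the Txnip difference reached 0.63, are not given here. The sign of the difference turned when 1 library was left out for Foxo1, Sesn1, Cdkn1a, Gadd45a and Txnip. It held in each such fit for Foxo3, Foxo4 and Sesn3. With 3 libraries a label, the exact permutation test cannot go below p = 0.1.

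**Figure D3:**
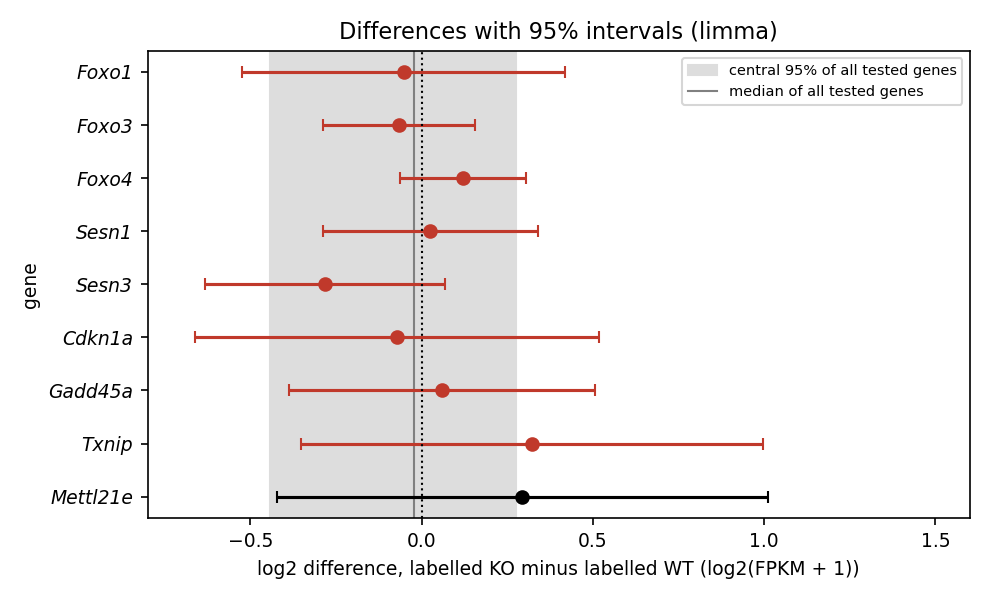
Log2 difference, labelled KO minus labelled WT, on the log2(FPKM + 1) scale for the 8 genes (red) and Mettl21e (black), with 95% intervals from limma. The grey band holds the central 95% of all 11383 tested genes (-0.44 to 0.28), and every interval includes 0.

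Across single libraries, no library was at the same end for all 8 genes. Library 1 labelled WT was highest for Foxo1, Foxo3 and Gadd45a and lowest for Foxo4 and Cdkn1a. Library 1 labelled KO was lowest for Sesn1, Sesn3 and Txnip and highest for none. Library 2 labelled KO was highest for Sesn1 and Cdkn1a, and library 3 labelled KO was highest for Foxo4 and Txnip and lowest for Foxo3. Spread within a label, as a share of the mean, was 5.47% for Foxo4, 6.66% for Foxo3, 14.0% for Sesn1 and 17.2% for Sesn3, against a median of 12.4% over all tested genes. It was 23.4% for Gadd45a, 30.0% for Foxo1, 30.5% for Cdkn1a and 38.3% for Txnip.

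**Figure D4:**
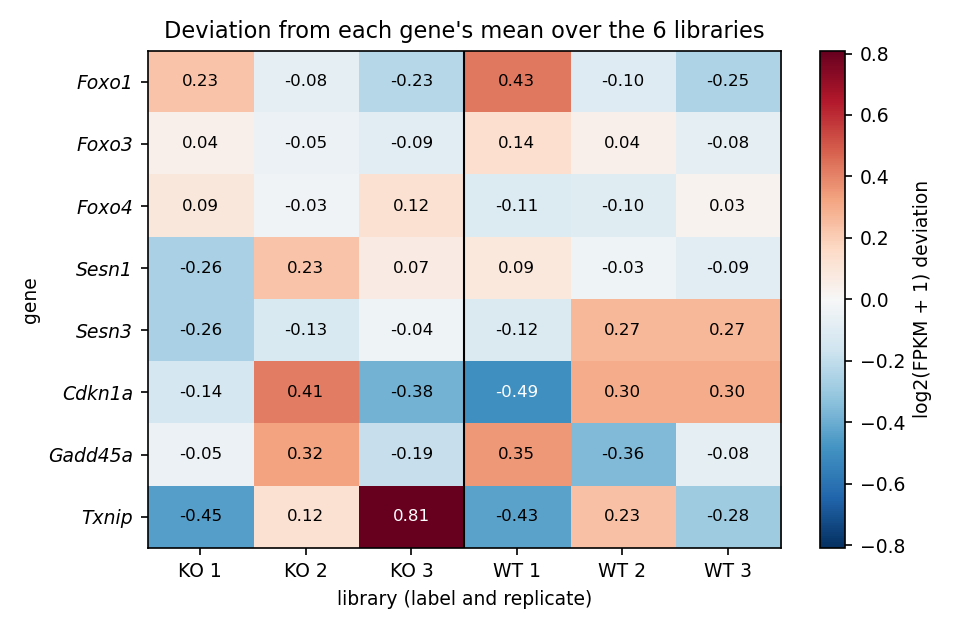
Deviation of log2(FPKM + 1) of each gene from its own mean over the 6 libraries, with libraries labelled KO left of the black line and those labelled WT right of it. Foxo3 and Foxo4 stay within 0.14 of their means, while Txnip runs from -0.45 in library 1 labelled KO to 0.81 in library 3 labelled KO.

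For the 5 genes whose highest library was at least 1.5 times the lowest, the most similar profile was sought among 7237 other protein-coding genes averaging 5 FPKM or more, as the smallest root mean square difference of centred log2(FPKM + 1) over the 6 libraries. These likenesses rest on 6 points that share their libraries and are descriptions only. Gadd45a was closest to Mstn, which encodes the muscle growth inhibitor myostatin, with a difference of 0.09 where the deviation of Gadd45a itself was 0.26. Mstn was at 15.0, 17.4 and 12.1 FPKM in KO-labelled libraries 1, 2 and 3 and at 16.1, 10.3 and 13.4 FPKM in WT-labelled libraries 1, 2 and 3. Cdkn1a was closest to Gimap6, a GTPase gene known from lymphocytes (difference 0.06, own deviation 0.36), which was at 11.5, 15.3 and 9.54 FPKM in KO-labelled libraries and 8.72, 15.6 and 15.1 FPKM in WT-labelled ones, in replicate order. Sesn3 was closest to Ly6e, a membrane-anchored Ly6 family gene (0.04, own deviation 0.20), and Foxo1 to Slf1, a genome maintenance gene (0.06, own deviation 0.25). The closest to Txnip was Nqo1, a quinone reductase gene of the oxidative stress response, but at 0.23 against an own deviation of 0.45 it followed Txnip only in part. Nqo1 was at 8.29, 12.3 and 15.6 FPKM in KO-labelled libraries 1, 2 and 3 and at 10.001, 10.4 and 9.47 FPKM in WT-labelled libraries 1, 2 and 3.

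Around the 8 genes, 12 lists covering 239 genes were examined, of which 215 were tested. None of them passed the test over all genes, and 7 (3.26%) had an unadjusted p under 0.05, 3 higher and 4 lower in KO-labelled libraries, against 4.59% of all tested genes. The lists were chosen with earlier results of these data known.

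Paralogs of the members gave no call among 6 tested, with a median log2 difference of 0.05. Gadd45g, another growth arrest gene, was at 85.0, 130.4 and 22.9 FPKM in KO-labelled libraries 1, 2 and 3 and at 75.7, 42.7 and 114 FPKM in WT-labelled libraries 1, 2 and 3. Its highest library was 5.69 times its lowest, a wider fold range than that of any member (at most 2.40, for Txnip). Gadd45b averaged 23.6 ± 5.95 FPKM in KO-labelled libraries and 23.5 ± 7.80 FPKM in WT-labelled ones (SD, n = 3 each). Cdkn1b, which encodes the cell cycle inhibitor p27, was at 16.5 ± 1.44 FPKM in KO-labelled libraries and 14.5 ± 1.19 FPKM in WT-labelled ones (log2 difference 0.17, limma adjusted p = 0.988).

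FoxO target genes stood on both sides of 0. Of 18 tested genes of protein breakdown and autophagy, 8 had a higher and 10 a lower KO-labelled mean on the log2 scale, with a median log2 difference of -0.01. The autophagy receptor gene Sqstm1 averaged 393 ± 41.4 FPKM in KO-labelled libraries and 425 ± 21.9 FPKM in WT-labelled ones, and the mitophagy gene Bnip3 242 ± 18.3 FPKM under the KO label and 276 ± 25.9 FPKM under the WT label (SD, n = 3 each). Psmd11, a proteasome lid subunit gene, had the smallest unadjusted p of the list, 0.046, at 77.6 ± 7.53 FPKM in KO-labelled libraries and 90.1 ± 5.03 FPKM in WT-labelled ones (log2 difference -0.22, adjusted p = 0.988). The atrophy ligase gene Fbxo32, named once its values had been seen, was at 31.2, 33.03 and 39.6 FPKM in KO-labelled libraries and 33.9, 24.2 and 26.6 FPKM in WT-labelled ones (log2 difference 0.29, adjusted p = 0.988). Its partner in atrophy Trim63, named likewise, was at 116 ± 5.21 FPKM in KO-labelled libraries and 114 ± 24.5 FPKM in WT-labelled ones.

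Among 21 tested FoxO targets of metabolism, stress defence and feedback, 7 were higher and 14 lower (median log2 difference -0.03). Pdk4, the pyruvate dehydrogenase kinase gene of the fasted state, was at 228, 98.7 and 132 FPKM in KO-labelled libraries 1, 2 and 3 and at 369, 178 and 37.4 FPKM in WT-labelled libraries 1, 2 and 3, so that both extremes carried the WT label. Lpl, which encodes lipoprotein lipase, was at 235 ± 7.30 FPKM in KO-labelled libraries and 259 ± 38.3 FPKM in WT-labelled ones. Klf15, a glucocorticoid-induced regulator of amino acid breakdown, had an unadjusted p of 0.032 and labels that did not overlap, at 22.8, 28.0 and 23.9 FPKM in KO-labelled libraries and 22.4, 15.2 and 19.9 FPKM in WT-labelled ones (log2 difference 0.37, adjusted p = 0.988). Library 1 labelled WT came within 0.5 FPKM of library 1 labelled KO. Klf15 was also the smallest p of the 18 glucocorticoid-responsive genes, of which 13 were higher and 5 lower (median 0.08). The abundant members of that list were Glul, which encodes glutamine synthetase, at 285 ± 64.1 FPKM in KO-labelled libraries and 269.5 ± 136 FPKM in WT-labelled ones, and Tsc22d3 at 164 ± 65.8 FPKM under the KO label and 153 ± 31.9 FPKM under the WT label.

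Upstream of FoxO, 32 tested kinases, acetylases and binding partners were 12 higher and 20 lower (median log2 difference -0.01). The 14-3-3 gene Ywhae averaged 333 ± 5.29 FPKM in KO-labelled libraries and 322 ± 7.75 FPKM in WT-labelled ones, and Akt2, the AKT isoform of insulin action, 181 ± 9.07 FPKM under the KO label and 187 ± 13.4 FPKM under the WT label. Prkaa2, the muscle AMP kinase catalytic subunit gene, had the smallest p of this list (0.094) with 33.7 ± 0.762 FPKM in KO-labelled libraries and 30.3 ± 1.19 FPKM in WT-labelled ones (log2 difference 0.15, adjusted p = 0.988). The labels did not overlap for Prkaa2.

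The partners of the sestrins in nutrient sensing held the smallest unadjusted p of the 12 lists. Castor2, a relative of the arginine sensor that binds the same GATOR2 complex as sestrins, was at 43.2, 48.7 and 48.7 FPKM in KO-labelled libraries 1, 2 and 3 and at 31.8, 38.8 and 30.5 FPKM in WT-labelled libraries 1, 2 and 3. The labels did not overlap, with a log2 difference of 0.47 (SE 0.11, limma adjusted p = 0.988, with an unadjusted p of 0.00244). The other tested members of this list of 27 lay between -0.21 and 0.11 on the log2 scale, with 12 of the 27 higher and 15 lower. Its most abundant genes were Prkab2 at 114 ± 7.03 FPKM in KO-labelled libraries and 108 ± 5.87 FPKM in WT-labelled ones, and Lamtor1, a lysosomal scaffold gene for mTORC1, at 92.8 ± 5.20 FPKM under the KO label and 98.0 ± 2.499 FPKM under the WT label.

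Genes of p53 and the cell cycle gave no call either. Of 23 tested p53 genes, 12 were higher and 11 lower (median log2 difference 0.01), with Ccng1 at 362 ± 67.6 FPKM in KO-labelled libraries and 355 ± 12.7 FPKM in WT-labelled ones and Phlda3 at 269 ± 77.6 FPKM under the KO label and 294 ± 45.3 FPKM under the WT label. Bbc3, which encodes the death effector PUMA, was at 1.87 ± 0.553 FPKM in KO-labelled libraries and 3.11 ± 0.748 FPKM in WT-labelled ones (log2 difference -0.52, limma adjusted p = 0.988, with an unadjusted p of 0.029). Of 16 tested cyclin, CDK and proliferation genes, 4 were higher and 12 lower (median -0.22). Cdkn2c, an inhibitor of CDK4 and CDK6, was at 2.30, 1.93 and 2.04 FPKM in KO-labelled libraries 1, 2 and 3 and at 2.81, 3.24 and 3.03 FPKM in WT-labelled libraries 1, 2 and 3, without overlap (log2 difference -0.38, limma adjusted p = 0.988, with an unadjusted p of 0.015). Rbl2 averaged 29.6 ± 1.78 FPKM in KO-labelled libraries and 26.4 ± 1.40 FPKM in WT-labelled ones, without overlap. Pcna averaged 24.6 ± 0.986 FPKM under the KO label and 29.0 ± 4.61 FPKM under the WT label. Mki67, a marker of dividing cells named once its values had been seen, was at most at 0.0457 FPKM in 5 libraries and at 1.10 FPKM in library 3 labelled WT, the library with the high neutrophil markers.

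**Figure D5:**
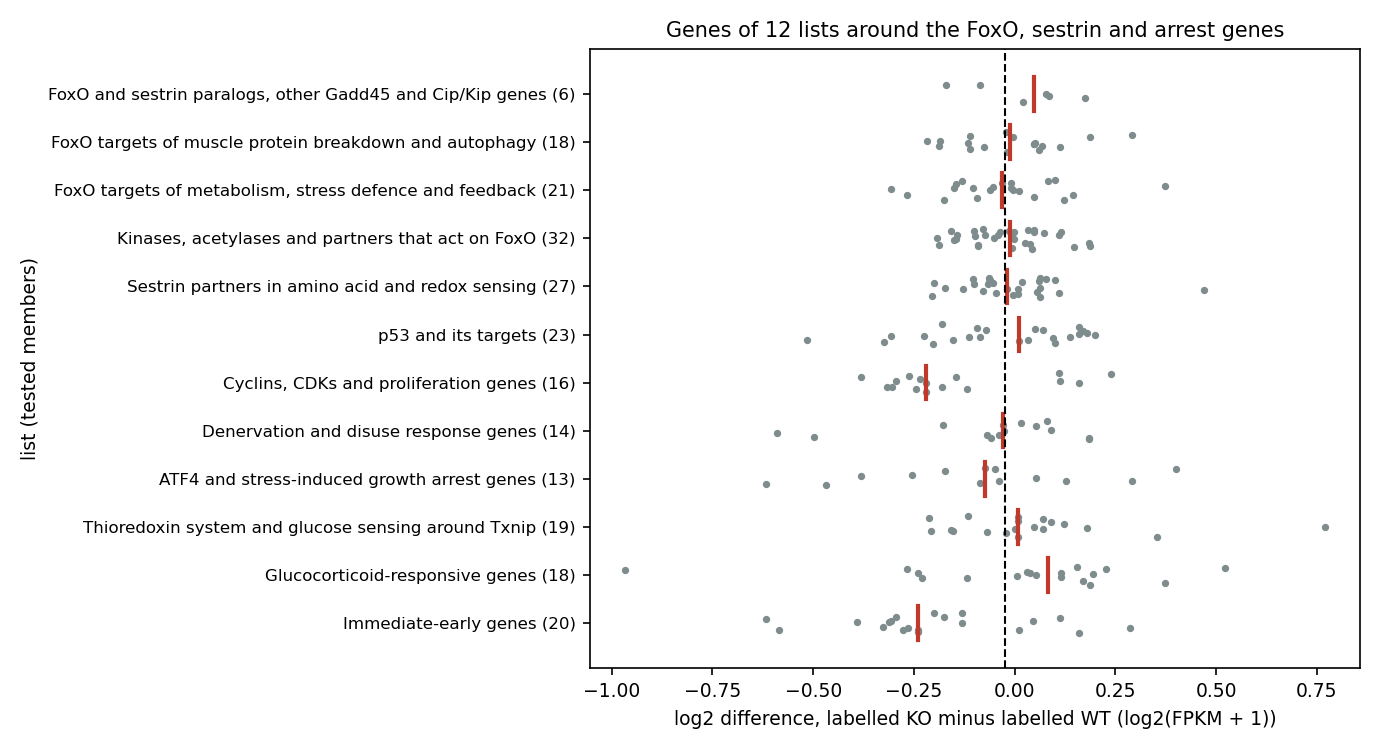
Log2 difference, labelled KO minus labelled WT, of each tested gene (grey points) in 12 lists around the 8 genes, with the list median as a red bar and the median of all tested genes (-0.02) as a dashed line. List medians run from -0.24 for the immediate-early genes to 0.08 for the glucocorticoid-responsive genes.

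Stress response lists were also without calls. Denervation and disuse genes were 6 higher and 8 lower of 14 (median log2 difference -0.03), with Atf4, the stress-response transcription factor gene, at 77.3 ± 3.80 FPKM in KO-labelled libraries and 79.5 ± 5.29 FPKM in WT-labelled ones, and the acetylcholine receptor gene Chrnb1 at 43.7 ± 9.56 FPKM under the KO label and 45.6 ± 7.44 FPKM under the WT label. Ankrd1, a stretch-responsive ankyrin repeat gene, was at 14.4 ± 4.35 FPKM in KO-labelled libraries and 21.99 ± 5.19 FPKM in WT-labelled ones (log2 difference -0.59, limma adjusted p = 0.988, with an unadjusted p of 0.026). ATF4 and stress-induced growth arrest genes were 4 higher and 9 lower of 13 (median -0.07). The lipoprotein receptor gene Vldlr had the highest mean and the smallest p of this list, at 87.6, 85.0 and 87.7 FPKM in KO-labelled libraries and 84.5, 57.9 and 72.2 FPKM in WT-labelled ones, without overlap (log2 difference 0.29, limma adjusted p = 0.988, with an unadjusted p of 0.051). The ATF4 target hormone gene Fgf21 is listed at 0 in all 6 libraries.

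Genes around Txnip in thioredoxin and glucose handling were 12 higher and 7 lower of 19 (median log2 difference 0.01). The glucose transporter gene Slc2a4 averaged 459 ± 60.6 FPKM in KO-labelled libraries and 463 ± 21.7 FPKM in WT-labelled ones, and the hexokinase gene Hk2 228 ± 39.5 FPKM under the KO label and 226 ± 22.2 FPKM under the WT label. Txn2, the mitochondrial thioredoxin gene, was at 170.4, 173 and 158 FPKM in KO-labelled libraries and 184, 181 and 194 FPKM in WT-labelled ones, without overlap (log2 difference -0.16, limma adjusted p = 0.988, with an unadjusted p of 0.064). Arrdc4, the arrestin paralog most often described as sharing the glucose response of Txnip, was at 3.14, 4.43 and 3.92 FPKM in KO-labelled libraries 1, 2 and 3 and at 2.33, 5.16 and 3.88 FPKM in WT-labelled libraries 1, 2 and 3; it was named after its values were seen. It was lowest in library 1 of each label, as Txnip was, but was not highest in library 3 labelled KO.

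Immediate-early genes, which respond quickly to stimuli, were 5 higher and 15 lower of 20 (median log2 difference -0.24), with no member at an unadjusted p under 0.05. The KO-labelled libraries were not alike in this list. Library 3 labelled KO was the lowest of all libraries for 13 of the 20 genes and the highest for 0. That library also had the fewest fragments (8476591) and the highest mitochondrial share (19.8%). How often it was the lowest over all tested genes was not counted, so its count here cannot be called particular to this list. Libraries 1 and 2 labelled KO were each the highest for 4 and the lowest for 2. Libraries 1, 2 and 3 labelled WT were the lowest for 1, 2 and 0 genes. Nr4a1 averaged 87.8 ± 38.1 FPKM in KO-labelled libraries and 73.9 ± 16.5 FPKM in WT-labelled ones, and Dusp1 66.5 ± 33.6 FPKM under the KO label and 72.4 ± 13.8 FPKM under the WT label (SD, n = 3 each). Atf3 had the smallest p of this list (0.054) at 2.70 ± 1.07 FPKM in KO-labelled libraries and 4.74 ± 1.92 FPKM in WT-labelled ones.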

How the data were processed

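Gene-level FPKM values were deposited by the authors, 1 table per library. Cufflinks 2.2.1, TopHat2 2.1.1 and build mm10 are named, per the submitters' processing notes. The sources used here do not give their roles, the annotation or the strand setting. Sample titles gave the label and the replicate number. Symbols, positions and transcript lengths came from GENCODE M21 (the same assembly), with 40452 of 41025 IDs named. Whole fragments were recovered from the FPKM for 23559 of 23559 genes above 0 (tolerance 0.002 of a fragment). The length they imply equalled the rounded mean of the M21 transcript lengths for 55.1% of genes with several transcripts.

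Differences were tested with limma 3.58.1 (R 4.3.3, mean-variance trend) on log2(FPKM + 1) over 11383 genes averaging 1 FPKM or more, with Benjamini-Hochberg adjustment at 0.05. The log2(FPKM + 1) scale understates changes of low genes. All 8 members passed this filter. A chi-square test found no pair of libraries within sampling noise. Spread within a label is the pooled SD over the mean, and spread from counting is that of a Poisson count. Intervals cover these libraries only, and fragment counts are without molecular identifiers.

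Members and lists were chosen with earlier results of these data known. Named genes were Mettl21e, the members, the 2 most abundant members and the smallest p of each list, and the closest profiles. Foxo6, Sesn2, Fgf21, the genes overlapping members and single cell type markers are outside this rule and count as named after their values were seen. The remaining ones are said in place to be named or picked after their values were seen. The alternatives were other scalings, pseudocounts, filters, weights and fits, and leaving out each library. Figures used matplotlib 3.10.9, and tables pandas 2.3.3 under Python 3.11.15.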

Additional observations from a re-analysis of the deposited data

How the results depend on the processing

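Among 126 refits of the 8 members, 0 brought a member past the test (lowest adjusted p 0.306, Sesn3), 113 kept the direction and 13 turned it. The Foxo1 difference was 0.0103 under quantile normalization and 0.0503 with library weights. Leaving out 1 library gave -0.19 to 0.15 for Foxo1, -0.0840 to 0.16 for Sesn1, -0.34 to 0.10 for Cdkn1a, -0.10 to 0.25 for Gadd45a, -0.0023 to 0.63 for Txnip and -0.0682 to 0.63 for Mettl21e, with both signs in each, and -0.41 to -0.22 for Sesn3. Over all genes, leaving out 1 library gave 0 to 3 calls and 342 to 1356 genes at an unadjusted p under 0.05. The 1356 came without library 1 labelled WT. That count was 1413 with library weights, 987 with no filter on low values (23559 genes tested) and 339 with a mean of at least 5 FPKM (7416 tested), and the cause was not tested beyond the number of genes. Foxo1 and Sesn3 were below the filter of 5 FPKM and gave no value there. Same-numbered libraries did not deviate together over all tested genes (correlations 0.02, -0.04 and 0.02). The numbers were not treated as pairs in the main fit, but such correlations cannot exclude a paired design. With the replicate number as a block, 0 genes were called and 472 had an unadjusted p under 0.05. With limma-voom on the recovered fragments the counts were 0 and 468. Of 192 refitted list medians, 174 moved by less than the spread between libraries. Medians of all genes lay between -0.04 and 0.02 in every fit. Levels per longest protein-coding transcript were an alternative chosen after seeing the data. Depth limits Sesn3 most, with 43 to 80 fragments a library.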

Other observations

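In the list of 18 glucocorticoid-responsive genes, library 2 labelled KO was the highest of the 6 for 9 genes and library 3 labelled KO the lowest for 10. The low values of library 3 labelled KO were not particular to this list. It was also the lowest for 13 of 20 immediate-early genes and 7 of 14 denervation and disuse genes. Library 2 labelled KO was the highest for 4 and 3 genes of those lists. The matching shares over all tested genes were not counted, so none of these counts can be read as a trait of its list. The FoxO target lists were more mixed: library 2 labelled KO was the highest for 5 of 21 genes of metabolism, stress defence and feedback and for 0 of 18 of protein breakdown and autophagy, and library 3 labelled KO the lowest for 5 of 21 and 4 of 18. The 4 genes that follow were picked for their wide range after their values were seen and do not stand for their lists. Ddit4, an mTORC1 inhibitor gene, was at 26.8, 68.9 and 6.86 FPKM in KO-labelled libraries 1, 2 and 3 and at 20.04, 22.9 and 52.1 FPKM in WT-labelled libraries 1, 2 and 3. Depp1, a FoxO target of autophagy, was at 21.8, 28.6 and 4.19 FPKM in KO-labelled libraries and 11.6, 14.1 and 18.6 FPKM in WT-labelled ones, in replicate order. The arrestin gene Arrdc2 was at 43.4, 68.6 and 16.2 FPKM in KO-labelled libraries and 26.5, 9.57 and 35.8 FPKM in WT-labelled ones. Library 2 labelled KO was the highest for these 3 genes. Library 3 labelled KO, which had the highest Txnip, was the lowest for Ddit4 and Depp1 and the second lowest for Arrdc2. The clock gene Per1 was at 24.6, 41.3 and 13.97 FPKM in KO-labelled libraries and 17.1, 17.6 and 29.1 FPKM in WT-labelled ones, with the same libraries at its ends. Pdk4 and Glul, of the same lists, were highest in library 1 labelled WT.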
